A study of Homo sapiens with 3 samples.

Results

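The genes described here encode the protein components of the cytosolic ribosome, split into the large and the small subunit. They were the array features whose annotation gave exactly 1 symbol that began with RPL or RPS followed by a digit, with an optional closing A, X or L, or that was RPLP0, RPLP1, RPLP2 or RPSA. S6 kinase genes, pseudogenes and Y-linked genes were left out, and no feature used here was annotated to RPLP0 or RPSA. The rule found 195 features of 72 genes, 46 of the large and 26 of the small subunit, among 18334 annotated genes. Of these, 65 had a value on all 3 arrays, 39 of 46 large and 26 of 26 small subunit genes, among 12550 such genes in all. The other 7, RPL10A, RPL10L, RPL28, RPL35A, RPL37, RPL39L and RPLP2, had a value on fewer arrays and were not tested.

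The cells were MCF10A, an immortalised breast epithelial line that does not form tumours. Each of 3 two-colour arrays, called independent replicates in the labels, held cDNA of cells with an shRNA against obscurin in the Cy5 channel and cDNA of cells with a scrambled control shRNA in the Cy3 channel. Both kinds of culture were stable transfectants kept under puromycin at 1.5 ug/mL, and both were given etoposide, a topoisomerase II poison, at 150 uM from 70% confluency until harvest at 48 hours. The labels name 1 hairpin per target, the dyes were not swapped, and a dye effect and the shRNA cannot be told apart. The comparison asks how the knockdown alters gene expression in cells under DNA damage.

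A ribosome joins a large subunit, which forms peptide bonds and carries the exit tunnel for the nascent chain, to a small subunit, which binds and decodes the mRNA. Each ribosomal protein is needed in about equal amount, and in epithelial cells their mRNAs are among the most abundant. These mRNAs usually begin with a run of pyrimidines, the terminal oligopyrimidine tract, through which mTORC1 signalling sets their translation as a group. When assembly is disturbed, free RPL5 and RPL11, bound to 5S rRNA, inhibit MDM2 and stabilise p53.

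Values are log2 ratios of both channels, likely obscurin shRNA over control shRNA, minus the median of the array over all of its features, which was 1.49, 1.28 and 1.39 on arrays 1, 2 and 3. A value of -1 is thus a ratio at 50% of the array's median ratio. Between 35502 and 36065 of 45220 features had a value per array. Ratios give no level, so neither the identity of the line nor the abundance of a message could be checked. P-values measure the spread between the 3 arrays.

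Whether a value stood in the row of its feature was examined first, because it touches each gene below. Repeated features of 234 transcripts, none of a ribosomal protein, should rank alike on an array. Among displacements of up to 600 features, their intraclass correlation was highest 170 features earlier in the list, at 0.159, 0.149 and 0.125 on arrays 1, 2 and 3, and next highest at the feature's own place, at 0.081, 0.108 and 0.105. It was at most 0.045, 0.052 and 0.042 at the other displacements. Results are given for the own place, as annotated, and then for the place at which these repeats agreed better, a choice added after the data were seen. Gene names at the own place carry this limit throughout.

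At their own place, ribosomal protein features lay low on each array. Their median was -1.17, -2.32 and -2.23 on arrays 1, 2 and 3, with 159, 160 and 171 of 195 features valued. The features with 1 symbol had medians of -0.06, -0.06 and -0.05. On each array the ratios fell into a narrow peak just above the median and a broader one well below it. Below -1 lay 53.5%, 60.6% and 63.2% of the ribosomal protein features, against 39.1%, 38.8% and 37.9% of the features with 1 symbol (the line at -1 was drawn after the data were seen). Features of the large subunit had medians of -1.14, -2.37 and -2.13, and those of the small subunit -1.61, -1.92 and -2.25. By these medians, arrays 2 and 3 lay further down than array 1 in either subunit. The share of small subunit features below -1 did not follow, at 57.4%, 55.2% and 66.1% on arrays 1, 2 and 3.

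**Figure D1:**
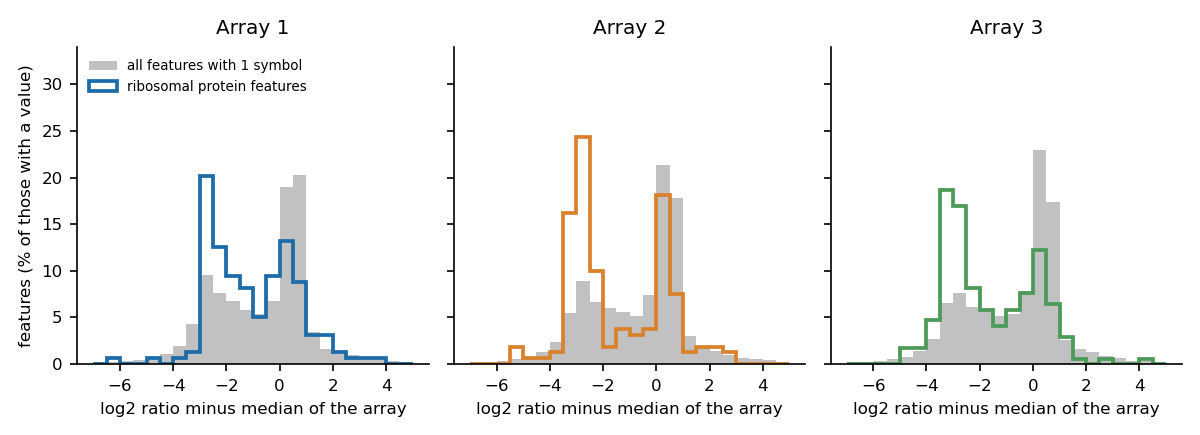
Distribution of log2 ratios (x axis, minus the median of the array) over features on arrays 1, 2 and 3, in percent of the features with a value (y axis, bins of 0.5). Grey bars are all features with 1 symbol and coloured outlines ribosomal protein features, which take a larger share of the lower peak: 53.5%, 60.6% and 63.2% of them lay below -1.

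Averaged per gene, both subunits lay below the array medians and below the other genes. Large subunit genes had a median of -0.88, -1.88 and -1.84 on arrays 1, 2 and 3, or -1.53 ± 0.57 (SD, n = 3 arrays). Small subunit genes had -1.66, -1.28 and -1.92, or -1.62 ± 0.32 (SD, n = 3). The median of all genes tested was -0.47, -0.48 and -0.48. Genes with 1 feature had medians of -0.25, -0.24 and -0.24, and genes with 5 or more features -0.64, -0.61 and -0.62, while the median of gene means was between -0.63 and -0.60 in each class. Ribosomal protein genes showed no order by feature number: the mean of their 3 array medians was -0.97 for 17 genes with 1 feature, -1.86 for 17 with 2, -1.62 for 22 with 3 or 4 and -1.40 for 9 with 5 or more.

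The subunits had no settled order. The large minus small difference of medians was 0.78 on array 1, -0.60 on array 2 and 0.08 on array 3, or 0.09 ± 0.69 (SD, n = 3), so its sign changed between arrays and the spread exceeded the mean. Without array 1 it was -0.26 and without array 2 it was 0.43. The interquartile ranges of both subunits overlapped on each array, from -1.71 to 0.05 and from -2.49 to -0.24 on array 1, for large and small. The difference of means over genes was -0.21 ± 0.12 (SD, n = 3), and the difference of medians among genes with at least 2 features 0.40 ± 0.38 (SD, n = 3), so both exceeded their spread with opposite signs. The first rested on RPS15, which stood at the highest value of array 1: without it the difference of means was 0.03 ± 0.53 (SD, n = 3), a check chosen after the data were seen. With all values taken 170 features earlier the difference of medians was 0.29 ± 0.25 (SD, n = 3). The subunits were not tested against each other.

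**Figure D2:**
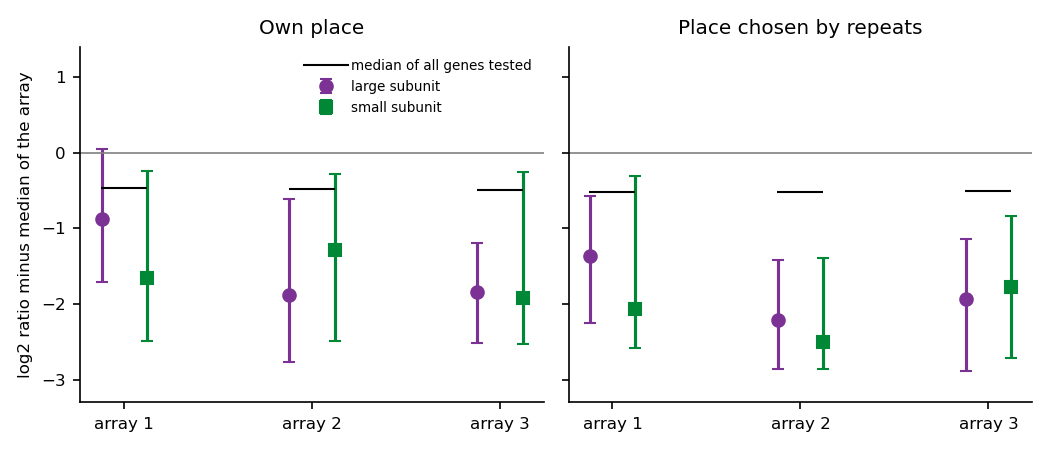
Median log2 ratio (y axis, minus the median of the array) of large subunit genes (circles) and small subunit genes (squares) on each array, with bars from the lower to the upper quartile over genes, at the own place and at the place chosen by repeats. Black lines mark the median of all genes tested, which lay above both subunits on each array, while the order of the subunits changed between arrays.

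By limma against 0 with Benjamini-Hochberg adjustment over 12550 genes, 0 of the 65 ribosomal protein genes passed an adjusted p of 0.05 on either side, as did 0% of all genes. At an unadjusted p under 0.05, 31 lay below (20 large and 11 small subunit genes, 47.7%) and 0 above, against 22.8% and 0.829% of all genes tested. The 1-sample test without moderation called 0 members below too, against 0.00797% of all genes. At an unadjusted p under 0.05 it had 19 members below and 1 above, against 14.9% and 5.03% of all genes. The smallest adjusted p of any gene by limma was 0.0524, so the count of 0 stood close to the threshold. The members RPL12, RPS20, RPS29 and RPS19 shared it with genes outside the group, among them NCL, MRPL12 and MRPS18C. It is a tied value and does not place these members ahead of other genes. Below the array median on all 3 arrays were 37 of 65 members (56.9%), 24 of 39 large and 13 of 26 small subunit genes, against 33.8% of all genes tested. Above it on all 3 arrays were RPL19, RPL27 and RPS23, 4.62% of the members against 15.7% of all genes.

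**Figure D3:**
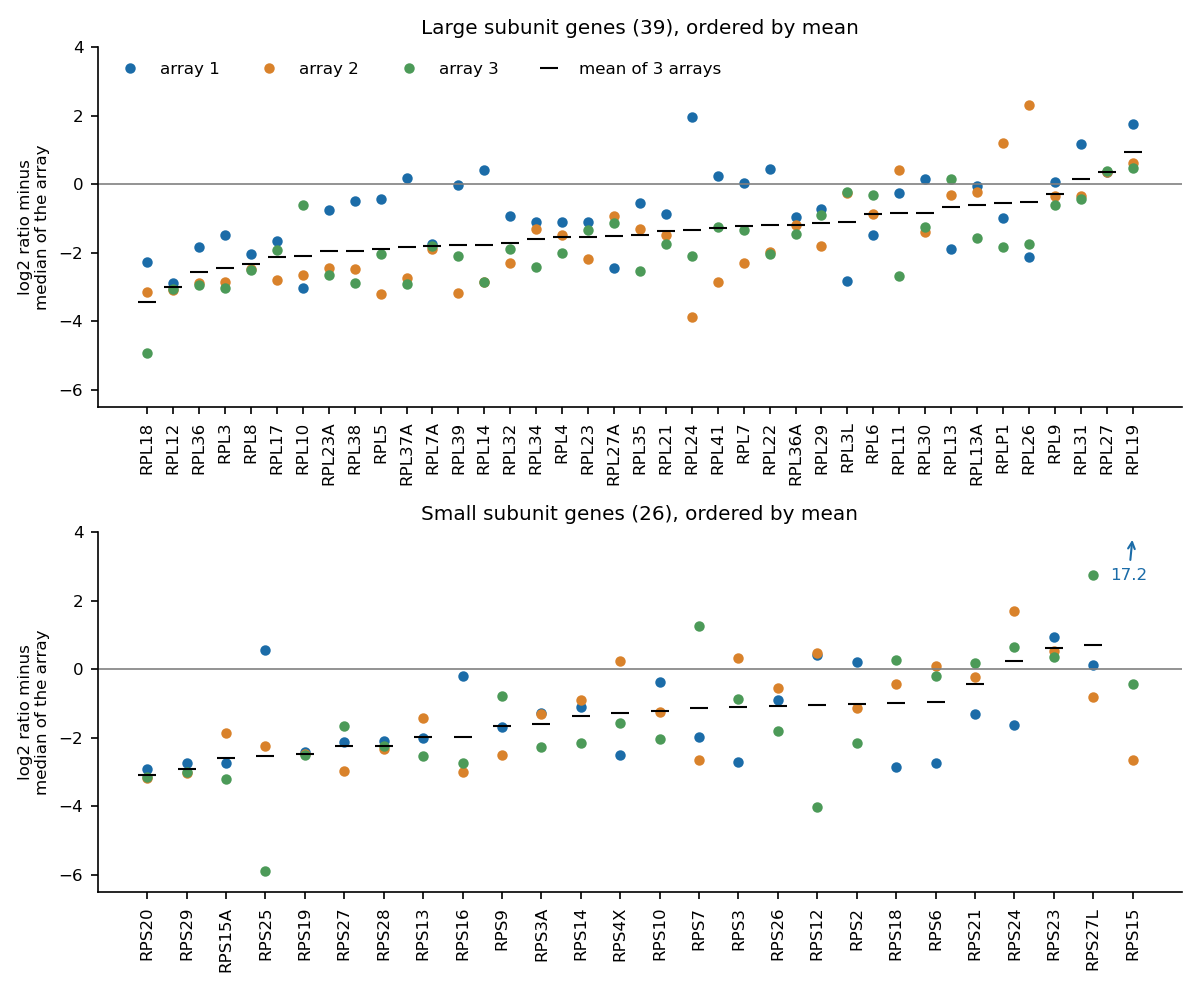
Log2 ratio (y axis, minus the median of the array) of each ribosomal protein gene on array 1, 2 and 3 (coloured points) with the mean of the 3 arrays (dashes), large subunit above and small subunit below, ordered by mean. Arrays 2 and 3 lie below array 1 for many large subunit genes; the RPS15 value of 17.2 on array 1, drawn as an arrow, and the mean of that gene are off the axis.

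Among large subunit genes, RPL12, which sits at the base of the stalk that recruits translation factors, had -2.88, -3.10 and -3.07 on arrays 1, 2 and 3. Its mean was -3.01 ± 0.12 (SD, n = 3; limma adjusted p = 0.0524). RPL18, mutated in Diamond-Blackfan anaemia, an inherited failure of red cell production, had -2.28, -3.14 and -4.93 (adjusted p by limma 0.0682). RPL18 thus differed more between arrays than RPL12, with all 3 values low in both. RPL8, a core protein near the peptidyl transferase centre, had -2.03, -2.49 and -2.50 (limma adjusted p = 0.0541). RPL36 had -1.83, -2.90 and -2.94 (limma adjusted p = 0.0578). RPL7A had -1.76, -1.88 and -1.80 over 5 features (limma adjusted p = 0.0666). RPL17, at the exit tunnel, had -1.66, -2.80 and -1.91. In all 6 of these genes array 1 held the value nearest to 0, though RPL7A was nearly level. At the place chosen by repeats, RPL12 had -1.04, -2.86 and -2.83 and RPL36 -0.04, -2.90 and -2.94. Their limma adjusted p was 0.0958 and 0.217 there, and RPL8 had no value on array 1. RPL18, RPL17 and RPL7A kept all 3 values below -1.

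Among small subunit genes, 4 had values that hardly differed between arrays. RPS20 had -2.92, -3.17 and -3.14, with a mean of -3.07 ± 0.14 (SD, n = 3; limma adjusted p = 0.0524). RPS29 had -2.74, -3.02 and -2.995 (limma adjusted p = 0.0524). RPS19, the gene most often mutated in Diamond-Blackfan anaemia, had -2.42, -2.46 and -2.50 (limma adjusted p = 0.0524). RPS28 completed them at -2.10, -2.33 and -2.24 (limma adjusted p = 0.0541). RPS15A had -2.73, -1.87 and -3.19, and RPS27, a zinc finger protein, -2.12, -2.97 and -1.65. The 3 values of each of these 6 genes lay below -1.6. At the place chosen by repeats this held for RPS20, RPS29 and RPS19. There RPS28 had -2.42, -2.86 and -1.32, RPS15A -2.61, -1.28 and -2.78, and RPS27 -1.20, -1.98 and -2.63.

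At the upper end stood RPL19, at 1.76, 0.61 and 0.47, RPL27, at 0.36, 0.35 and 0.38, and RPS23, a protein of the decoding centre, at 0.96, 0.54 and 0.36. The limma adjusted p of these genes was 0.288, 0.518 and 0.346, and none passed. All 3 values of each lay above the array medians, and those of RPL27 hardly differed. RPL31, at the exit tunnel, had the next highest mean of its subunit with 1.18, -0.35 and -0.42, high on array 1 only. RPS15 had 17.2 on array 1 from 1 feature at the highest value of that array, and -2.64 and -0.41 on arrays 2 and 3, so its mean says nothing of its level. RPL26 had 2.30 on array 2 because 1 of 5 features held the highest value there; the other 4 averaged -1.45.

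Counts by role are read against all genes tested, of which 68.4% had a mean below 0 and 33.8% lay below 0 on all 3 arrays. Over all ribosomal protein genes these shares were 89.2% and 56.9%. Below on all 3 arrays were 44.4% of the 5S particle and MDM2 group, 55.6% of exit tunnel genes and 62.5% of Diamond-Blackfan anaemia genes. These shares stood on both sides of the 56.9%, and no role was tested against the other members. RPLP1, an acidic protein of the stalk, had -0.998, 1.19 and -1.84, low on arrays 1 and 3 and high on array 2. Its partner RPLP2 had -1.003 and -0.46 on arrays 1 and 3 with no value on array 2. Of the 9 genes of the 5S particle or with a described hold on MDM2, 4 lay below the median on all 3 arrays and 0 above, with medians of -1.10, -0.89 and -1.65. RPL5 had -0.44, -3.21 and -2.05, RPL11 had -0.26, 0.40 and -2.68, and RPL23 had -1.10, -2.18 and -1.34. RPL23 was below -1 on all 3 arrays, RPL5 on arrays 2 and 3, and RPL11, with 1 feature, on array 3 alone. RPS7 had -1.99, -2.65 and 1.26. RPS14, a gene of the region lost in a myelodysplastic syndrome, had -1.08, -0.89 and -2.14. RPS3, which also has a described role in DNA repair, had -2.71, 0.32 and -0.86. RPS14 was thus low throughout, while RPS7 and RPS3 had 1 array above.

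Of 9 measured exit tunnel genes 5 lay below on all 3 arrays, against 33.8% of all genes and 56.9% of ribosomal protein genes. Their medians were -0.56, -1.50 and -2.01, the first close to the -0.47 of all genes on array 1. RPL4, whose loop lines the tunnel, had -1.11, -1.50 and -2.01, and RPL23A, the docking site of nascent chain factors, -0.76, -2.44 and -2.66. RPL39 had -0.02, -3.18 and -2.11, and RPL22 0.43, -1.99 and -2.05. In these 4 genes array 1 held the highest value. Of 16 measured Diamond-Blackfan anaemia genes 10 lay below the median on all 3 arrays, with medians of -1.81, -1.59 and -2.04. RPS26 had -0.88, -0.55 and -1.79, and RPS10 -0.36, -1.25 and -2.04, all below the median. RPS24, also of this group, had -1.63, 1.69 and 0.67, low on array 1 alone. RPS6, the substrate of S6 kinase, had -2.73, 0.10 and -0.19. For RPS6 array 1 lay apart from the array median and the other arrays near it. RPL13A, released from the ribosome in interferon-treated monocytes, had -0.06, -0.24 and -1.56.

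Among members with none of these roles, values differed between arrays too. RPS25 had 0.57, -2.24 and -5.89, a wide range from 1 array to another. RPL24 had 1.97, -3.88 and -2.10, RPL37A 0.17, -2.73 and -2.90, and RPL41 0.23, -2.85 and -1.25. In these 4 genes array 1 lay above the array median and the other arrays below it. RPS18 had -2.84, -0.43 and 0.28 and RPS4X -2.51, 0.24 and -1.55, both lowest on array 1. RPS13, at -2.01, -1.42 and -2.53, and RPL34, at -1.10, -1.30 and -2.43, were low throughout. These 8 genes were chosen after their values were seen.

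Close paralogs share sequence, so their features may take up each other's message. RPS27L, a p53-induced relative of RPS27, had 0.13, -0.80 and 2.76 from 1 feature, against -2.12, -2.97 and -1.65 for RPS27. Each value of RPS27L lay above the value of RPS27 on the same array, but at the chosen place array 2 turned, with -2.84 for RPS27L and -1.98 for RPS27. RPL3L, the striated muscle form, had -2.82, -0.26 and -0.22, while RPL3 had -1.49, -2.86 and -3.02. RPL3L was thus low on array 1 alone, and RPL3 lowest on the other arrays. RPL10L, a testis form, had a value of -2.44 on array 3 only, and RPL39L, known from testis, 0.28 on array 2 only. RPL10, the relative of RPL10L, had -3.04, -2.66 and -0.62. RPL7 had 0.03, -2.31 and -1.35, and RPL36A -0.95, -1.18 and -1.45. RPL36AL, the paralog of RPL36A, did not meet the symbol rule and is not among the members.

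The low values of ribosomal protein features marked the place of the values as well. Their median was lowest at exactly the places found by the repeats, out of 1201 displacements. On array 1 it was -2.07 at 170 features earlier and -1.17 at the own place, and not below -1.14 elsewhere. On array 2 the own place had -2.32, the place 170 features earlier -1.79, and no other place less than -1.06. On array 3 these values were -2.23, -1.31 and -0.94. The neighbouring feature on either side had medians between -0.22 and 0.21 on the 3 arrays, near those of all features.

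**Figure D4:**
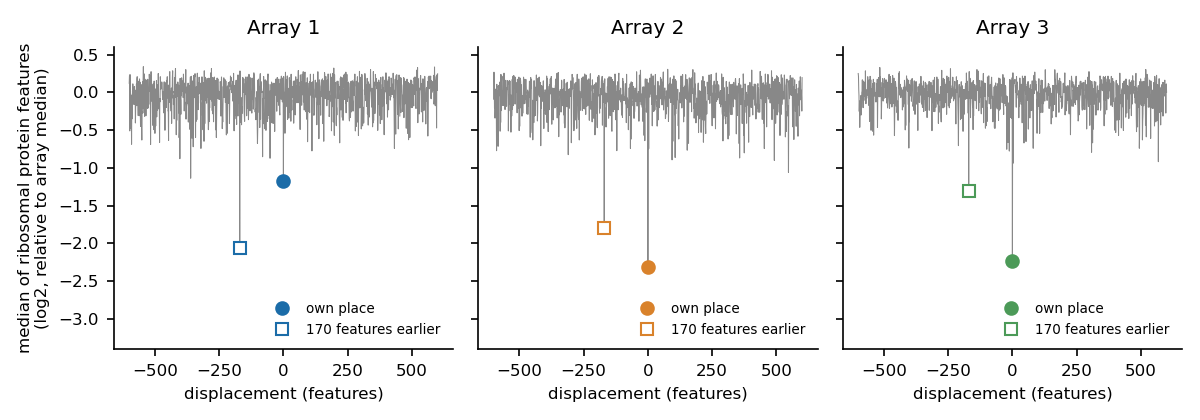
Median log2 ratio (y axis, relative to the array median) of ribosomal protein features when the value of each is taken from a row displaced by up to 600 features (x axis; negative is earlier in the list), on arrays 1, 2 and 3. The filled circle is the own place and the open square the place 170 features earlier; both stand below the other displacements on each array, at -1.17 and -2.07 on array 1.

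The place with the lower values changed along the list. When the list was split into 5 stretches of 9044 features each, 55 ribosomal protein features of the first had a median of -0.94 on array 1 at their own place and -2.52 at 170 features earlier. On array 2 the same 55 features had -2.87 at the own place and -1.66 earlier, and on array 3 -2.94 and -0.88. In the last stretch, the order was turned: 27 features had -2.11 at the own place and 0.20 earlier on array 1, 0.15 and -2.55 on array 2, and -0.00 and -2.19 on array 3. Repeats of other transcripts chose the earlier place in 10 of 15 stretches and the own place in 5. In 13 of these 15 the chosen place was the one with the lower ribosomal protein median. The exceptions were the third stretch on array 3 (0.16 at the chosen place, -1.31 at the other) and the fourth on array 1 (-1.36 and -1.43).

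**Figure D5:**
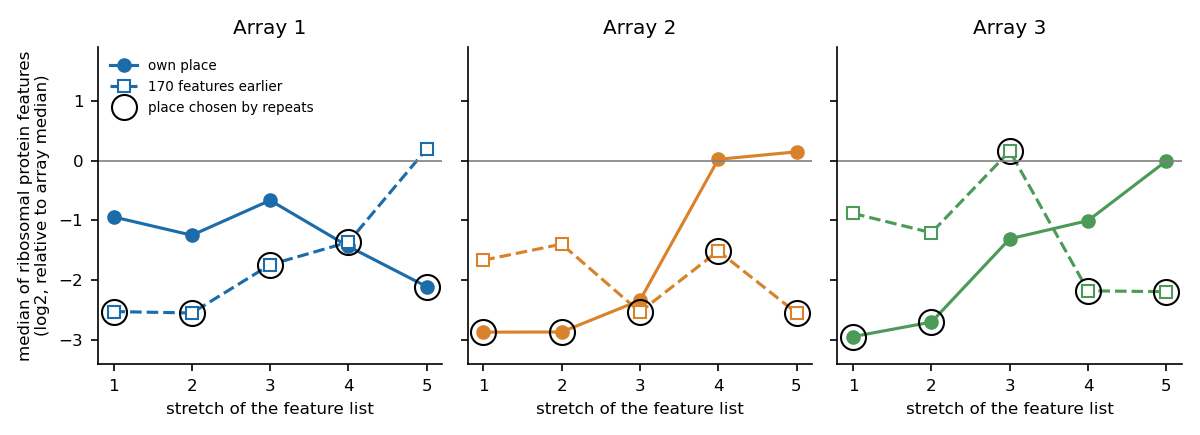
Median log2 ratio (y axis, relative to the array median) of ribosomal protein features in each of 5 consecutive stretches of the feature list (x axis), at the own place (filled circles) and 170 features earlier (open squares), on arrays 1, 2 and 3. Black rings mark the place at which repeated features of other transcripts agreed better, which was the lower one in 13 of 15 cases.

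With each stretch at the place chosen by the repeats, ribosomal protein genes lay lower, as did other lists described below, while the median of all genes tested was -0.52, -0.52 and -0.50. The feature medians became -2.13, -2.61 and -2.32 on arrays 1, 2 and 3, and 67.5%, 73.8% and 66.1% of the features lay below -1, against 39.7%, 39.5% and 38.4% of the features with 1 symbol. Of 66 members with a value on all 3 arrays, 51 (77.3%) lay below the median on each, against 34.8% of 12451 genes tested, and 0 lay above on each, against 16% of all genes. At an unadjusted p under 0.05 by limma, 41 of 66 lay below and 0 above, against 24.2% and 0.916% of all genes. Large subunit genes had medians of -1.37, -2.21 and -1.94 and small subunit genes -2.07, -2.50 and -1.77. The large minus small difference was 0.70, 0.29 and -0.16, or 0.28 ± 0.43 (SD, n = 3), again smaller than its spread.

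At this place 9 of 66 members (13.6%) passed an adjusted p of 0.05 by limma on the lower side and 0 on the upper, against 5.99% and 0.0161% of all genes tested. They were RPL3, RPL10L, RPL14, RPL35, RPL38, RPS7, RPS19, RPS20 and RPS29, named here because they passed. RPL14 had -2.81, -2.85 and -2.87 at the chosen place, where at its own place it had 0.43, -2.85 and -2.87. RPL35, at the exit tunnel, had -3.16, -2.82 and -3.07, where at its own place it had -0.56, -1.32 and -2.53. RPL38, needed for the translation of Hox mRNAs in the mouse, had -2.72, -2.47 and -2.88, and -0.50, -2.47 and -2.88 before. In RPL14 and RPL38 only array 1 changed, because the chosen place of their features on arrays 2 and 3 was the own place. The equal values there do not compare both places. RPL3, which lies by the peptidyl transferase centre, had -2.96, -2.96 and -2.91. RPS7, a protein of the MDM2 group, had -2.84, -2.67 and -4.21. RPL10L had -2.97, -3.35 and -3.31 from 1 feature, and is a close paralog of RPL10. The adjusted p of these 9 genes lay at 0.0482 or 0.0483, and with 10 instead of 5 stretches 0 members passed, so these calls stood at the edge of the threshold.

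The zero point set how many members counted as low. With 0 at the median of tested genes, 30 of 65 members lay below on all 3 arrays and 4 above. At an unadjusted p under 0.05 by limma, 18 lay below and 2 above there, and 0 passed the adjusted p. The share of all genes is not given for that zero. With the values as deposited, 14 members lay below 0 on all 3 arrays and 8 above, against 11.6% and 43.1% of all genes, and 0 passed the adjusted p, against 0% of all genes. With 0 at the value repeated most often on each array, 55 lay below on all 3 arrays and 0 above, against 62% and 1.49%, and 21 of 65 passed below by limma, against 17.2% of all genes. Tested as 122 single features, 29 passed below, against 11.9% of 16124 features; 64 lay below 0 on all 3 arrays and 12 above, against 30.2% and 21.9%. With features valued on all 3 arrays only, 8 of 62 members passed below, 12.9% and so near the 10% of all genes. Within the first stretch alone, 18 of 29 members lay below on all 3 arrays and 0 above, against 28.5% and 19.5% of the genes there. Above on all 3 arrays were 1 of 48 members with at least 2 features, against 11.2%, 0 of 63 at 170 features earlier throughout, against 16.4%, and 0 of 65 with 10 stretches, against 15.6% of all genes. Where a share of all genes is given, the share of members below 0 on all arrays exceeded it. So did the share past the threshold where any passed, and the share above 0 was smaller.

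Of the members named by role, p-value or mean, 39 had a value on all 3 arrays at the chosen place. The mean of 7 of them lay on the other side of 0 from that at the own place. The genes that had stood above on all arrays did not stay there. RPS23 had -3.19, -2.55 and 0.16 at the chosen place, RPL19 0.88, -2.92 and -3.06, and RPL27 0.36, 0.59 and -2.99. RPS23 was then low on arrays 1 and 2, RPL19 on arrays 2 and 3, and RPL27 on array 3. RPS27L stayed mixed, at 0.32, -2.84 and 0.85. RPS12 was low on array 3 alone at either place, with 0.41, 0.48 and -4.01 at its own place and 1.04, 0.33 and -4.85 at the other.

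The start of transcription is a feature that the choice of members did not use. In the RefSeq promoter table (GRCh38.p14), which held 60 of the 72 genes, 81.7% had at an annotated start a run of at least 6 bases, all C or T, that included 1 of the 5 bases around the start. The share was 20.1% over the 27305 genes of the table. It was 30 of 37 for the large and 19 of 23 for the small subunit. The windows below run from 10 bases before the start to 20 from it onward, read 5′ to 3′ on the gene's strand, for members that passed at the chosen place or stood above at their own place, and for RPS27L (RPS20 is not shown). Where there is such a run, it is in capitals.
RPS19, chr19:41860245-41860274, plus strand: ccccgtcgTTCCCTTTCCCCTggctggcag
RPS7, chr2:3575250-3575279, plus strand: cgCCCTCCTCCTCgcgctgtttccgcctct
RPL14, chr3:40457329-40457358, plus strand: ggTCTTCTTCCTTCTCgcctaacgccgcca
RPL35, chr9:124861938-124861967, minus strand: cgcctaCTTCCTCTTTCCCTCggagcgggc
RPL38, chr17:74203668-74203697, plus strand: aagtctcgTTCTTTTTCgtccttttccccg
RPL19, chr17:39200313-39200342, plus strand: agCTCTTTCCTTTCgctgctgcggccgcag
RPS23, chr5:82278335-82278364, minus strand: cggtgCTTCTCTCTTTCgctcaggcccgtg
RPL3, chr22:39319604-39319633, minus strand: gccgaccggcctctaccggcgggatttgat
RPS29, chr14:49598691-49598720, minus strand: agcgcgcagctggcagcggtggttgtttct
RPL27, chr17:42998409-42998438, plus strand: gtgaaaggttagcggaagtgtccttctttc
RPL10L, chr14:46651762-46651791, minus strand: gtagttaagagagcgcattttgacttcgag
RPS27L, chr15:63157458-63157487, minus strand: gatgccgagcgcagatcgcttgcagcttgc
Genes that passed (RPS19, RPS7, RPL14, RPL35 and RPL38) and genes that had stood above (RPL19 and RPS23) both carried the run, while RPL10L and RPS27L had none in this window. RPL27, RPL3 and RPS29 had no such run at this start either. Members with the run, 45 measured, had a median of gene means of -1.37 at their own place, with 25 below on all 3 arrays. The 10 measured members without it had -1.08, with 5 below. Over all genes tested 33.8% lay below on all 3 arrays, and over all ribosomal protein genes 56.9%. At the chosen place the medians were -1.86 for 45 members with the run and -1.64 for 11 without it. There 35 and 8 lay below on all 3 arrays, against 34.8% of all genes and 77.3% of all members. Members with and without the run thus lay close together, and their difference was not tested.

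Other genes of protein synthesis were set beside all genes tested, whose medians were -0.47, -0.48 and -0.48. Messages with a terminal oligopyrimidine tract that encode no ribosomal protein had medians of -0.90, -1.58 and -1.09 on arrays 1, 2 and 3, and 13 of 19 measured lay below on all 3 arrays. Over all genes tested, 33.8% did. EEF1D, a subunit of the exchange factor of elongation, had -2.16, -2.92 and -2.74, and the poly(A) binding protein PABPC1 -1.96, -1.92 and -2.07. FAU, whose product carries a small subunit protein fused to a ubiquitin-like one, had -0.53, -1.43 and -0.90. Ribosome assembly genes had medians of -0.46, -1.17 and -1.24, with 24 of 54 below on all 3 arrays and 6 above. Nucleolin, NCL, had -2.82, -2.95 and -3.80. Mitochondrial ribosomal protein genes had -1.06, -0.95 and -1.27, with 22 of 50 below on all 3 arrays and 5 above. Of these, MRPL12 had -3.08, -2.56 and -2.76 and MRPS18C -2.60, -2.94 and -2.90, all low. In each of these lists 0 genes passed an adjusted p of 0.05 by limma at their own place; at an unadjusted p under 0.05 there were 7 of 19, 16 of 54 and 14 of 50 genes below and 0 above, against 22.8% of all genes below. At the chosen place 2 of 19, 8 of 55 and 7 of 49 passed, all below, against 5.99% of all genes. The mean of the array medians there was -1.67 for terminal oligopyrimidine messages, -1.26 for assembly genes, -1.31 for mitochondrial and -1.92 for cytosolic ribosomal protein genes, from -1.19, -0.96, -1.09 and -1.47 at the own place. Split by subunit, mitochondrial large subunit genes had -1.43 at the own and -1.91 at the chosen place, close to cytosolic ribosomal protein genes. Mitochondrial small subunit genes had -0.34 and -0.82. Of terminal oligopyrimidine messages 68.4% lay below on all 3 arrays at either place, against 56.9% (own) and 77.3% (chosen) of ribosomal protein genes. Low values were thus not particular to ribosomal protein genes, and differences between the lists were not tested.

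The order of the ribosomal protein genes was compared between arrays and between features. Over the 65 genes, ranks on array 1 correlated at 0.08 with array 2 and 0.06 with array 3, and ranks on array 2 correlated at 0.51 with array 3, given as a description of values that share their array. These coefficients were 0.33, 0.27 and 0.49 over all genes tested. At the chosen place they were 0.25, 0.15 and 0.32 over 66 members. The intraclass correlation of the features of a member was 0.0001, -0.06 and -0.09 on arrays 1, 2 and 3, so features of 1 ribosomal protein gene were no more alike than features of different ones. At the chosen place it was -0.01, -0.08 and 0.01. Over all genes it was 0.03, 0.05 and 0.03 at the own place and 0.06, 0.12 and 0.09 at the other. The order of single members is therefore not resolved by these arrays.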

How the data were processed

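The values are log2 ratios of both channels of 3 arrays, as deposited by the authors, 1 per feature and array. How the images were scanned, corrected and normalized is not given in the sources used here. The log base was read from the values. The centring and the sign convention remain unknown, and ratios were read as likely channel 1 over channel 2. Each array was set to 0 at its median over all features. Features were named by the platform annotation (31332 with 1 symbol, 93 with several, 13795 with none). Of the former, 31291 matched the GRCh38.p14 RefSeq table by Entrez identifier and 0 changed symbol. Features were averaged per gene, and 12550 genes with a value on all 3 arrays were tested against 0, two-sided, with limma 3.58.1 (lmFit, eBayes) in R 4.3.3, with Benjamini-Hochberg adjustment. The number of arrays limits the precision. Subunit medians were not tested, since members are not replicates.

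For the chosen place, the feature list was cut into 5 stretches. In each, an array's values were read at their own row or 170 rows earlier, whichever gave repeated features (transcripts with at least 10, ribosomal proteins left out) the higher intraclass correlation of ranks. The limma fit and the choice of place were run on simulated data. For the place, the simulation was given the displacement and the stretch borders, and repeats more alike than in most stretches here. It therefore does not show how well places were chosen on these arrays. Members and lists were chosen with earlier results of these data known. Genes named are the 6 per subunit with the smallest p, the 3 lowest and 3 highest means, and members of role lists; others are named as chosen after their values were seen (the genes that passed at the chosen place, RPS12, members with none of the roles, and those of other lists, by smallest p). The alternatives tried are given in the closing section. The check of the targeted gene is not reported here.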

Additional observations from a re-analysis of the deposited data

How the results depend on the processing

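Averaged over arrays, the large and small subunit medians of -1.53 and -1.62 stayed below 0 in each setting, but their size followed the zero point. As deposited they were -0.15 ± 0.66 and -0.23 ± 0.27 (SD, n = 3). Both spreads exceeded the means, so the sign was not settled for the values as deposited. With 0 at the most repeated value the medians were -2.16 and -2.24. The small subunit median was -1.14 with 0 at the median of tested genes, -1.98 over single features, -1.18 as a mean over genes, and -2.12 and -2.18 with 5 and 10 stretches at the chosen place. In the first stretch alone the large subunit median was -2.21 ± 1.17 and the small subunit median -1.76 ± 1.85 (SD, n = 3), from 22 and 7 genes. The large minus small difference ranged from -0.26 to 0.43 without 1 array, and also lay below 0 in the first stretch (-0.45), over single features (-0.04) and as a difference of means (-0.21 ± 0.12, SD). Members past the adjusted p numbered 0 of 65. With 0 at the most repeated value 21 of 65 passed, against 17.2% of all genes. With features valued on all 3 arrays only, 8 of 62 passed, against 10%. Of 122 features tested singly 29 passed, against 11.9%. With 5 stretches at the chosen place 9 of 66 passed, against 5.99%. Members below 0 on all arrays numbered 37 of 65 (56.9%), against 33.8% of all genes. As deposited they numbered 14 of 65 (21.5%, against 11.6%), and in the first stretch alone 18 of 29 (62.1%, against 28.5%). Of 122 single features 64 lay below (52.5%, against 30.2%). Without 1 array 41 to 49 members lay below, where fewer arrays had to be low and no share of all genes was taken. Members above 0 on all arrays numbered 3 of 65, against 15.7% of all genes. As deposited they numbered 8 of 65, against 43.1%. Of 122 single features 12 lay above, against 21.9%, and of 48 genes with at least 2 features 1 did, against 11.2%. The count was 0 with 0 at the most repeated value, against 1.49% of all genes. It was also 0 with all values taken 170 features earlier, in the first stretch, and with 5 or 10 stretches at the chosen place. The shares of all genes there lay from 15.6% to 19.5%. Fewer genes enter the first stretch; for the other settings the cause was not tested. Each array holds both cultures and gives 1 ratio, so the test of the ratios against 0 already uses the pairing on the array. No further pairing was possible. No intensities were used here, so dim features could not be told from bright ones.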
